A study of Chlamydomonas reinhardtii with 12 samples.

Results

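The strain ratio before light stress was measured on 4 of the 12 slides of a two-colour cDNA microarray study of the green alga Chlamydomonas reinhardtii, chosen by their title, which places them in low light. Total RNA of the wild-type strain CC-125 and of the double mutant npq1 lor1, both from low light, was hybridised together on each slide. The 4 slides come from 2 biological samples, each measured on 2 slides with the dyes exchanged: a forward slide, which has wild type in channel 1, and a reversed slide, which has npq1 lor1 there. The other 8 slides hold the same strains under high light, for 1 h or 6 h. The p-values measure only the spread between the 2 samples of a time point, pooled over low light and both high light times. The labels name the samples biological replicates but give no separate cultures or days, so this spread may be technical. Because RNA of whole cultures was compared, fewer cells with a transcript and less of it per cell cannot be told apart.

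Xanthophylls are oxygen-containing carotenoids that are bound by the light-harvesting proteins of the thylakoid membrane. Under excess light, violaxanthin is converted to zeaxanthin, and zeaxanthin and lutein help to dissipate absorbed energy and to quench reactive oxygen. Cells with npq1 cannot carry out this conversion and cells with lor1 cannot make lutein, so the double mutant lacks both pigments. In low light zeaxanthin is scarce in wild-type cells as well, whereas lutein is a regular component of the antenna. The low light comparison therefore asks how the transcripts of the 2 strains differ before any light stress is applied.

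The deposited values are log2 ratios of the dye intensities. They are called negative or positive here as deposited. A negative ratio is likely more transcript in npq1 lor1 and a positive ratio more in the wild type, because the titles name the wild type first and this direction follows if channel 1 was Cy3 on every slide. Which dye each channel held is not stated. The array held 2880 elements in 4 copies, of which 2396 had a value on all 4 low light slides and were tested. A locus tag was attached to 105 elements (100 loci), and 94 of these were tested. The tags carry no gene names in the annotation used, so the symbols below were assigned from general knowledge of these loci, for 37 of the 100 loci. The other 63 are given by tag, and untagged elements are named by the lowest of their spot numbers.

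The exchanged slides differed more by dye orientation than by sample. Across elements, the forward slides correlated with r = 0.62 and the reversed slides with r = 0.74. The 4 pairs of slides with opposite orientation correlated with r between -0.44 and -0.24. The median ratio over spots was 0.16 and 0.06 on the forward slides, and -0.15 and -0.10 on the reversed slides. In 76.9% of the tested elements the orientation means had opposite signs, so the difference between orientations was larger than the strain ratio that averaging leaves. After averaging the exchanged slides, the 2 biological samples correlated with r = 0.62 across elements, which share slides and regional trends and are not independent replicates. The reversed slide of sample 2 stood apart: 22.3% of its spots had no value, against 8.85% to 9.39% on the other low light slides, and the median SD between copies was 0.264 against 0.0523 to 0.0777. The means below are strain ratios only if the exchanged slides were turned before deposit, as the labels describe.

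**Figure D1:**
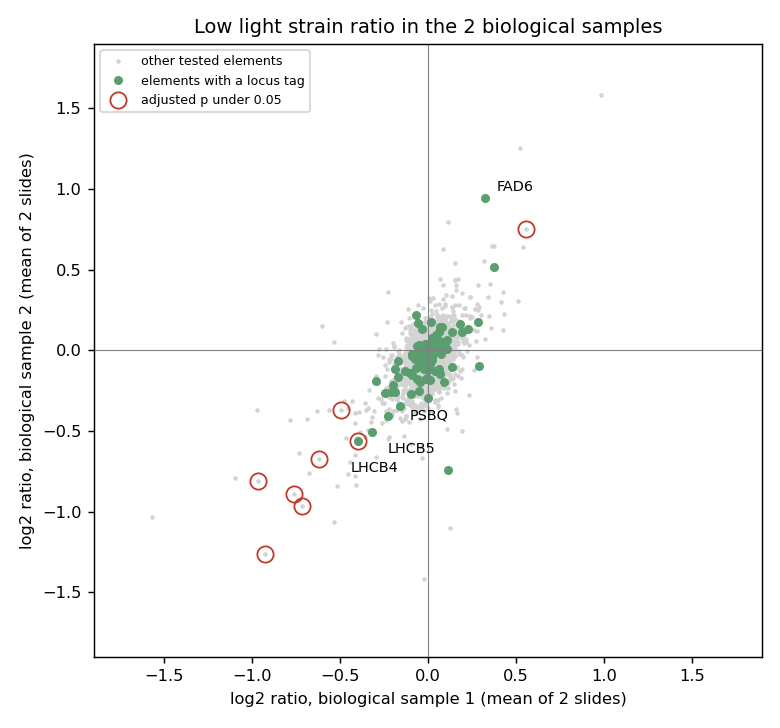
Each point is one of the 2396 tested elements, with the mean log2 ratio of the exchanged slides in biological sample 1 on the x axis and in sample 2 on the y axis. Green points have a locus tag and red circles mark the 8 elements past the test. Most points lie near 0, and the points far from 0 lie mainly along the diagonal (r = 0.62 over all).

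The strain ratios in low light were small. Their median was -0.01 and their median size 0.0545 on the log2 scale. The median size of the difference between the 2 biological samples was 0.0727. A mean of both samples varies less than their difference, so the 2 sizes cannot be compared directly. The standard error of a mean ratio had a median of 0.0744. With limma's moderated test, 8 of 2396 elements (0.334%) differed between the strains at an adjusted p under 0.05. Of these, 7 (0.292% of the elements) had a negative ratio and 1 (0.0417%) a positive one. An unadjusted p under 0.05 was found for 191 elements (7.97%), 132 negative (5.51%) and 59 positive (2.46%).

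Of the 8 elements, 1 carried a locus tag, LHCB4 (CHLRE_17g720250v5), the gene of CP29, a minor antenna protein of photosystem II that binds lutein and violaxanthin. The largest ratio among the 8 was that of element 1198, which had -1.13 and -1.16 on the forward slides and -0.73 and -1.36 on the reversed slides. All 4 slides were thus far below 0. Its mean was -1.10 ± 0.24 (SD, n = 2), a 2.14-fold difference (limma adjusted p = 0.0111).

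Element 1360 was also well below 0 throughout, between -1.15 and -0.66 on the 4 slides, with a mean of -0.84. Element 1314 lay between -1.37 and -0.41 with a mean of -0.83, and element 1018 between -1.12 and -0.23 with a mean of -0.65. In each of these 3 the lowest value came from the reversed slide of sample 2, for element 1018 from 2 of 4 copies. The positive element, 2850, had 0.60 and 0.79 on the forward slides and 0.51 and 0.71 on the reversed slides. Its 4 values lay within a narrow range, and its mean was 0.65 ± 0.14 (SD, n = 2), a 1.57-fold difference (adjusted p = 0.0291).

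The remaining 2 elements did not hold a sign over the slides. Element 293 gave -1.03 and -0.90 in sample 1, but 0.65 and -2.26 in sample 2, the latter from 2 of 4 copies. Its means in the 2 samples (-0.97 and -0.81) nevertheless lay close together, since opposite slides averaged out. Element 47 had -0.83 and -0.82 on the reversed slides but -0.17 and 0.08 on the forward slides, so its mean of -0.44 rested on 1 orientation.

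The number of elements past the test depended on which slides set the spread and on single samples. It was 114 (4.76%), 80 of them negative, when the spread came from low light only. It was 18 and 7 without low light sample 1 or 2, 1 without either sample of 1 h, and 20 without either sample of 6 h. Without the low light slide that stood apart it was 1. The cause of these shifts was not tested.

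**Figure D2:**
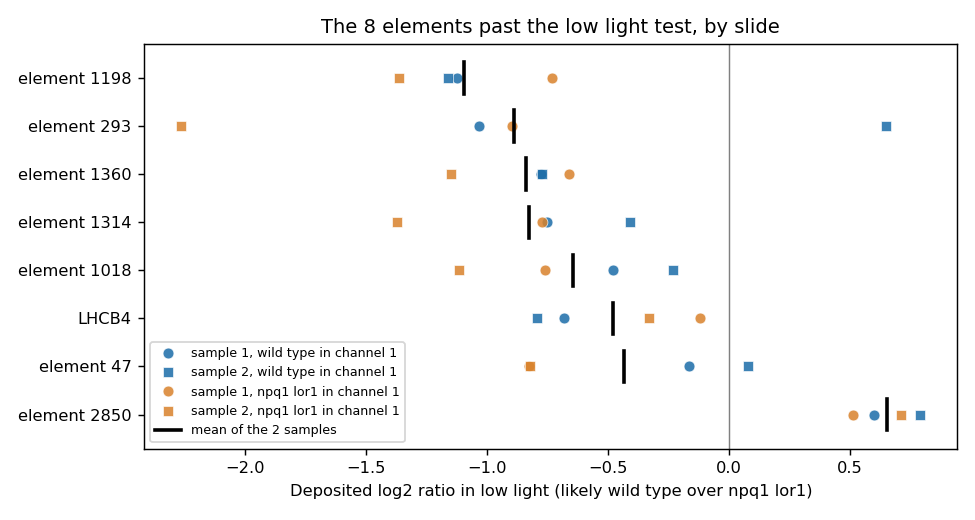
The x axis gives the deposited log2 ratio and each row is one of the 8 elements past the low light test. Points are the 4 slides, with colour for forward or reversed slides and shape for the biological sample, and the bar is the mean. Elements 1198, 1360 and 2850 hold together over all slides (2850 between 0.51 and 0.79), while element 293 spans -2.26 to 0.65.

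Agreement over all 4 slides is a separate view that does not use the fitted spread. Of the 2396 tested elements, 112 (4.67%) were negative and 97 (4.05%) positive on all 4 slides. Among the 94 locus-tagged elements, 9 were negative and 8 positive on all 4. The 9 negative ones were those of LHCB4, LHCB5, PSBQ, PSAD, GSA1, CPX1, PRK1, MAS1 and 1 of the 2 elements of HYDA1. In 3 elements of the array, 1198, 1360 and 888, every slide was at least 1.5-fold from equality in the same direction.

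The antenna was represented by 4 loci. In photosynthesis, antenna proteins collect light and pass it to the reaction centres, and LHCSR proteins dissipate what is in excess. For LHCB4 the forward slides had log2 ratios of -0.68 and -0.79, and the reversed slides -0.12 and -0.33. All were negative, with the orientations clearly apart. The mean was -0.48 ± 0.11 (SD, n = 2, standard error 0.0713), a 1.40-fold difference with limma adjusted p = 0.0342. The 4 copies on each slide agreed to an SD of 0.0306 to 0.232. The call was lost without either low light sample (adjusted p = 0.0533 without sample 1 and 0.643 without sample 2), without either sample of 1 h (0.0924 for both) and without the slide that stood apart (0.0837). The low light ratio of LHCB4 stayed between -0.60 and -0.40 in these fits.

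LHCB5 (CHLRE_16g673650v5) encodes CP26, the other minor antenna protein of photosystem II measured here. It had -0.30 and -0.41 on the forward slides and -0.34 and -0.60 on the reversed slides. The orientations overlapped, whereas those of LHCB4 did not. The mean was -0.41 ± 0.13 (SD, n = 2), a 1.33-fold difference that did not pass (limma adjusted p = 0.0599). With the spread taken from low light only, it passed (adjusted p = 0.00574). The difference between LHCB4 and LHCB5 was not tested.

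LHCSR1 (CHLRE_08g365900v5), the stress-related member, had 0.11 and 0.11 on the forward slides and -0.43 and -0.80 on the reversed ones. The -0.80 came from 2 of 4 copies on the slide that stood apart. The sign followed the orientation on all 4 slides. The mean of -0.25 ± 0.13 (SD, n = 2) did not pass (adjusted p = 0.646). LHCBM3 (CHLRE_04g232104v5), a major antenna protein, had a usable value on only 1 low light slide (-0.07) and was not tested. Element 320, annotated with 2 loci, was kept unnamed and given no function, and it is not counted among the antenna loci. It was negative on all 4 slides, between -0.99 and -0.35, with a mean of -0.68 ± 0.23 (SD, n = 2, adjusted p = 0.499).

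Photosystem subunits had negative means without passing the test. PSBQ (CHLRE_08g372450v5) encodes a lumenal protein that helps to stabilise the oxygen-evolving complex of photosystem II. It had -0.24 and -0.43 on the forward slides and -0.21 and -0.39 on the reversed slides. Both orientations gave nearly the same values, and sample 2 was lower than sample 1 on both. The mean was -0.32 ± 0.13 (SD, n = 2, adjusted p = 0.175).

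PSAD (CHLRE_05g238332v5) encodes the stromal subunit of photosystem I on which ferredoxin docks. It was the most even of the photosynthesis loci described here, with -0.24 and -0.27 on the forward slides and -0.25 and -0.26 on the reversed slides. The mean was -0.26 ± 0.01 (SD, n = 2, limma adjusted p = 0.249), with a standard error of 0.0715 from the spread estimated over all time points.

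PSAE (CHLRE_10g420350v5), a neighbouring stromal subunit, lay between -0.11 and 0.01 on the slides, with a mean of -0.06 ± 0.02 (SD, n = 2). PSAF (CHLRE_09g412100v5), which docks plastocyanin on the lumenal side, had -0.40 and -0.36 on the forward slides and 0.30 and -0.04 on the reversed slides. Its mean of -0.12 ± 0.11 (SD, n = 2) thus averaged values of both signs. Neither passed (adjusted p = 0.965 and 0.891).

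In all, the 7 tested antenna and photosystem elements had negative means in both biological samples, as did 849 of all 2396 elements. The median of the 7 was -0.26, where the median of all 2396 elements was -0.01. With the electron carriers and the chloroplast ATP synthase added, 9 of 16 tested elements were negative in both samples, with a median of -0.09. Of the 7, 1 passed the test, against 0.292% of all elements called negative. A negative ratio with an unadjusted p under 0.05 was found for 4 of the 7, against 5.51% of all elements, and 4 were negative on all 4 slides, against 4.67%. With the sign of the reversed slides turned, 4 of the 7 were negative, LHCB4 at -0.26, PSAF at -0.26, PSAE at -0.04 and PSBQ at -0.02. LHCSR1 was then at 0.36, LHCB5 at 0.057 and PSAD at 0.0020, and the median was -0.02. The loci were picked with earlier results of these data known, so these counts describe them and carry no test.

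**Figure D3:**
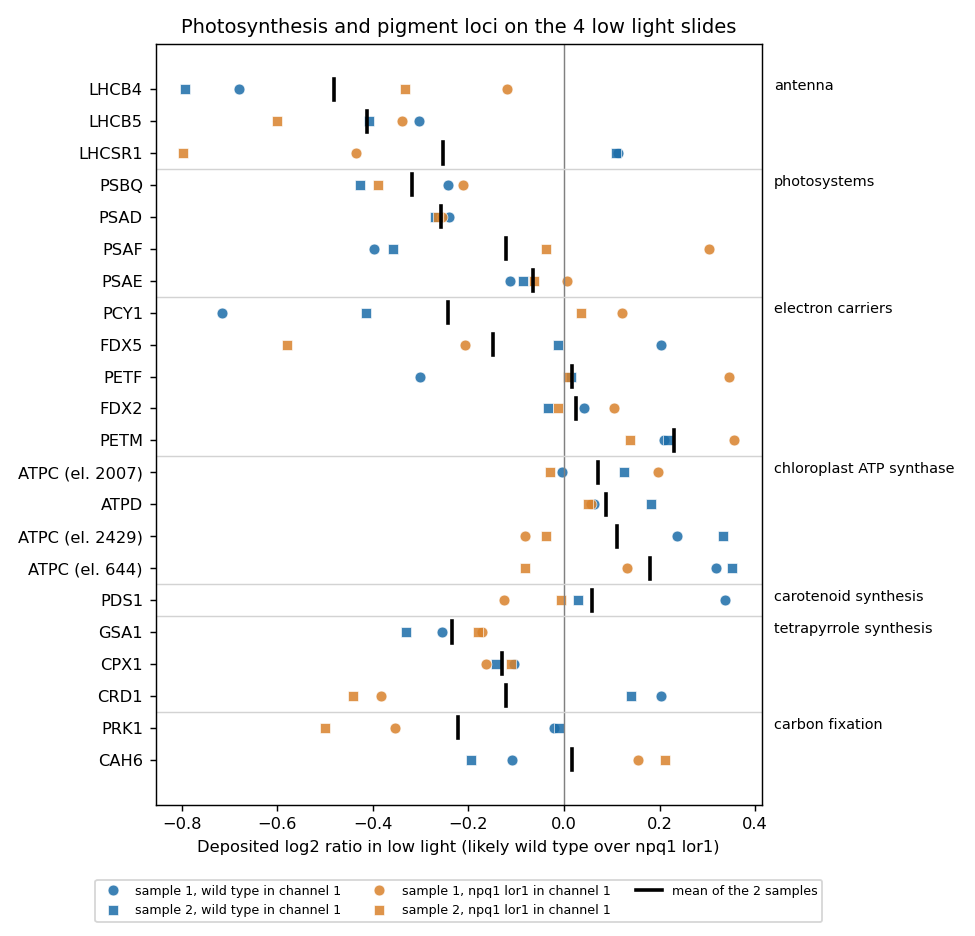
Each row is a tested element of a photosynthesis or pigment locus, grouped by function, and the x axis gives the deposited log2 ratio in low light. Points are the 4 slides (colour, forward or reversed; shape, biological sample) and bars are means. LHCB5, PSBQ and PSAD have both colours on the same side of 0, while LHCSR1, CRD1 and CAH6 split by colour.

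Electron carriers and the ATP synthase had means on both sides of 0. PCY1 (CHLRE_03g182551v5), plastocyanin, carries electrons from the cytochrome complex to photosystem I. It had -0.72 and -0.41 on the forward slides but 0.12 and 0.03 on the reversed slides, and its mean of -0.24 ± 0.08 (SD, n = 2) had an adjusted p of 0.588. The sign again followed the orientation. PETM (CHLRE_12g546150v5), a small subunit of the cytochrome complex, was positive on all 4 slides, between 0.14 and 0.36. Its mean was 0.23 ± 0.07 (SD, n = 2, adjusted p = 0.785).

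The ferredoxins take electrons from photosystem I. Means were 0.02 for PETF (CHLRE_14g626700v5) and 0.03 for FDX2 (CHLRE_16g658400v5). In sample 1, PETF had -0.30 on the forward slide and 0.35 on the reversed slide. FDX5 (CHLRE_17g700950v5) had a mean of -0.15 ± 0.21 (SD, n = 2), with slides between -0.58 and 0.20. Of the 5 tested carriers, 0 passed limma's adjusted threshold and 1, PCY1, had an unadjusted p under 0.05, against 0.334% and 7.97% of all elements.

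ATPC (CHLRE_06g259900v5), the gamma subunit of the chloroplast ATP synthase, was represented by 3 elements. Their means were 0.07 ± 0.03, 0.11 ± 0.05 and 0.18 ± 0.06 (SD, n = 2 each) for elements 2007, 2429 and 644. All were positive in both biological samples, and none passed (adjusted p between 0.773 and 0.953; unadjusted p between 0.0932 and 0.286). The delta subunit, ATPD (CHLRE_11g467569v5), had 0.09 ± 0.04 (SD, n = 2) and was positive on all 4 slides.

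Pigment synthesis is the pathway nearest to the mutations. PDS1 (CHLRE_12g509650v5), phytoene desaturase, acts early in carotenoid synthesis, upstream of both blocked steps. It had a low light ratio of 0.06 ± 0.07 (SD, n = 2), with slides between -0.13 and 0.34 (adjusted p = 0.974). The genes mutated in the strain were not analysed here.

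The tetrapyrrole pathway, which supplies chlorophyll and haem, had 3 loci, all with negative means in both samples. GSA1 (CHLRE_03g158000v5), which makes the precursor 5-aminolevulinate, had -0.26 and -0.33 on the forward slides and -0.17 and -0.18 on the reversed slides. All slides were on the same side, and the mean of -0.23 ± 0.03 (SD, n = 2) was a 1.18-fold difference (adjusted p = 0.337). CPX1 (CHLRE_02g085450v5), coproporphyrinogen oxidase, lay between -0.16 and -0.10 on the 4 slides with a mean of -0.13 ± 0.01 (SD, n = 2, adjusted p = 0.702). CRD1 (CHLRE_07g346050v5), the cyclase that forms the fifth ring of chlorophyll, had a like mean of -0.12, but its slides ran from -0.44 to 0.20 by orientation. Of the 3, 0 passed limma's adjusted threshold and 1, GSA1, had an unadjusted p under 0.05, against the same 0.334% and 7.97% of all elements.

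In carbon fixation, PRK1 (CHLRE_12g554800v5), phosphoribulokinase of the Calvin cycle, had -0.02 and -0.01 on the forward slides and -0.35 and -0.50 on the reversed slides. Its mean of -0.22 ± 0.05 (SD, n = 2, adjusted p = 0.363) came almost wholly from 1 orientation. The carbonic anhydrase CAH6 (CHLRE_12g485050v5) had a mean of 0.02 from slides that split by orientation, between -0.19 and 0.21.

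Among the tested locus-tagged elements, the ratio farthest from 0 was positive as deposited. FAD6 (CHLRE_13g590500v5), the chloroplast omega-6 desaturase that adds a double bond to the fatty acids of plastid membrane lipids, had 0.20 and 0.45 in sample 1 and 0.87 and 1.02 in sample 2. All 4 slides were positive, and both slides of sample 2 lay above those of sample 1. The mean was 0.64 ± 0.44 (SD, n = 2), a 1.55-fold difference that did not pass (adjusted p = 0.0784). With the sign of the reversed slides turned it was -0.10. CHLRE_07g325741v5 followed, positive on all 4 slides between 0.20 and 0.72, with a mean of 0.45 ± 0.10 (SD, n = 2, adjusted p = 0.0672). The acyl carrier protein ACP2 (CHLRE_13g577100v5), which holds the growing fatty acid chain, had 0.06.

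At an unadjusted p under 0.05, 13 of the 94 locus-tagged elements were found, 9 negative and 4 positive, against 7.97% of all elements (5.51% negative and 2.46% positive). Besides those above, the negative ones were CHLRE_09g405850v5 (-0.18) and CHLRE_16g679500v5 (-0.17), whose slides split by orientation, and the positive ones CHLRE_03g205900v5 (0.16) and CHLRE_16g671350v5 (0.17). With the spread taken from low light only, 10 locus-tagged elements passed at an adjusted p under 0.05, against 4.76% of all elements. Besides LHCB4 and LHCB5, these were PSBQ (limma adjusted p = 0.0211), PSAD (0.0245), GSA1 (0.0382), PCY1 (0.0407), PRK1 (0.0484), PETM (0.0481), FAD6 (0.0230) and CHLRE_07g325741v5 (0.00374). CHLRE_16g656400v5 had a mean of -0.31 ± 0.61 (SD, n = 2), with 1 slide at -1.48, from 2 copies, and the others between -0.00 and 0.18.

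Loci of mitochondria, protein folding and antioxidant defence had mean ratios close to 0. The ATP synthase subunits ATP1 (CHLRE_02g116750v5) and ATP2 (CHLRE_17g698000v5) had -0.02 and -0.06, and the ADP/ATP carrier ANT1 (CHLRE_09g386650v5) 0.00. The manganese superoxide dismutase MSD1 (CHLRE_02g096150v5), which removes superoxide, had -0.02 ± 0.01 (SD, n = 2). The disulfide isomerase PDI1 (CHLRE_02g088200v5) had 0.04 and the calreticulin CRT2 (CHLRE_01g038400v5) -0.03. Over these 6 the lowest limma adjusted p was 0.993 and 0 passed, where 0.334% of all elements did. The slides of ATP2, ANT1, MSD1 and PDI1 split by orientation, so their means averaged values of both signs. MSD1 had -0.20 and -0.19 on the forward slides and 0.17 and 0.13 on the reversed slides. PDI1 had -0.19 and -0.32 on the forward slides and 0.29 and 0.36 on the reversed slides.

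Among the other loci with a known function, malate synthase had the lowest ratio. MAS1 (CHLRE_03g144807v5), an enzyme of the glyoxylate cycle that lets cells grow on acetate, had -0.21 ± 0.01 (SD, n = 2), negative on all 4 slides, with an adjusted p of 0.893. The thylakoid biogenesis protein VIPP1 (CHLRE_13g583550v5) had -0.04 and the pyrophosphatase IPY1 (CHLRE_10g424100v5) 0.12. The centrin CEN1 (CHLRE_11g468450v5) had -0.04 and FTT1 (CHLRE_12g559250v5), a regulatory adaptor protein, -0.01. The slides of VIPP1, CEN1 and FTT1 split by orientation, positive on the forward and negative on the reversed slides, whereas those of IPY1 were all positive. The hydrogenase HYDA1 (CHLRE_03g199800v5), an enzyme of anaerobic hydrogen production, had 2 elements with means of -0.06 and 0.06, so the locus gave both signs. CHLRE_01g010000v5 likewise had -0.06 and 0.03 on its 2 elements, and the slides of the element with -0.06 split by orientation. CHLRE_09g400775v5 had -0.15 on its tested element, whose slides split by orientation, and its other element lacked a value on 1 slide. Glutamine synthetase GLN1 (CHLRE_02g113200v5) and glutamate dehydrogenase GDH1 (CHLRE_09g388800v5) had values on 3 and 0 low light slides and were not tested.

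The largest differences were counted over all tested elements, of which 94 carried a locus tag. In all, 10 of 2396 elements (0.417%) were at least 1.5-fold from equality in the same direction in both samples, and 1 of them, element 2424, at least 2-fold (-1.57 and -1.04). None of the 10 had a tag, and few would be expected among any 10 elements at that share. Of the 10, 9 were negative, and the positive one was element 888, with 0.98 in sample 1 and 1.58 in sample 2. It had 0.94 and 1.51 on the forward slides and 1.03 and 1.66 on the reversed slides, the 1.66 from 2 of 4 copies. Its mean of 1.28 ± 0.42 (SD, n = 2) had an adjusted p of 0.166. Element 779 had a mean of -0.94 from slides between -1.23 and -0.49 (adjusted p = 0.0701).

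The low light ratio was set against those after 1 h and 6 h of high light, which come from samples of their own. Some high light slides had fewer values than any low light slide. The forward slide of sample 2 had 43.4% of its spots without a value at 1 h and 43.2% at 6 h. The forward slide of sample 1 at 6 h had a median SD between copies of 0.351. These slides also enter the spread behind the low light p-values. In limma's test of the change, 1 of 2195 elements (0.0456%) passed from low light to 1 h and 1 of 2032 (0.0492%) from low light to 6 h. Neither had a locus tag, which only 89 of the 2195 and 78 of the 2032 elements carried. An unadjusted p under 0.05 was found for 113 (5.15%) and 235 (11.6%). Among the locus-tagged elements, 6 of 89 and 17 of 78 had an unadjusted p under 0.05.

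Element 911 passed for the change to 1 h. Its low light ratio was -0.27 ± 0.20 (SD, n = 2), with slides between -0.57 and -0.03, all on the negative side. The change to 1 h was -1.23 (adjusted p = 0.0105). The change to 1 h of element 911 lost the call without either sample of 1 h (adjusted p = 0.125 and 0.371). Element 293, which passed for the change to 6 h at 1.13 (adjusted p = 0.0403), is the element whose low light slides had opposite signs in sample 2, and it lost the call without either sample of 6 h (adjusted p = 0.0731 and 0.0831).

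LHCB4 had mean ratios of -0.48 before the shift, -0.09 after 1 h and -0.41 after 6 h. Its change to 1 h was 0.39 (SE 0.101, adjusted p = 0.450). LHCB5 went from -0.41 in low light to -0.25 and -0.94, and LHCSR1 from -0.25 to -0.33 and -1.03. Their changes from low light to 6 h were -0.53 (SE 0.101, adjusted p = 0.0968) and -0.78 (SE 0.160, adjusted p = 0.113), which missed the threshold. FAD6 had 0.64 before the shift, 0.37 after 1 h and -0.10 after 6 h, and PETM 0.23, -0.16 and -0.43, with adjusted p for the change to 6 h of 0.196 and 0.273.

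Element 2850, the positive element of the low light test, had -0.23 ± 0.19 (SD, n = 2) at 1 h and -0.19 ± 0.14 (SD, n = 2) at 6 h. In all 4 high light samples its ratio was negative, between -0.36 and -0.09, against 0.55 and 0.75 in low light. The changes of -0.88 and -0.85 had limma adjusted p of 0.0957 and 0.0585. Element 1198 stayed at -1.02 and -1.25, close to its low light ratio.

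**Figure D4:**
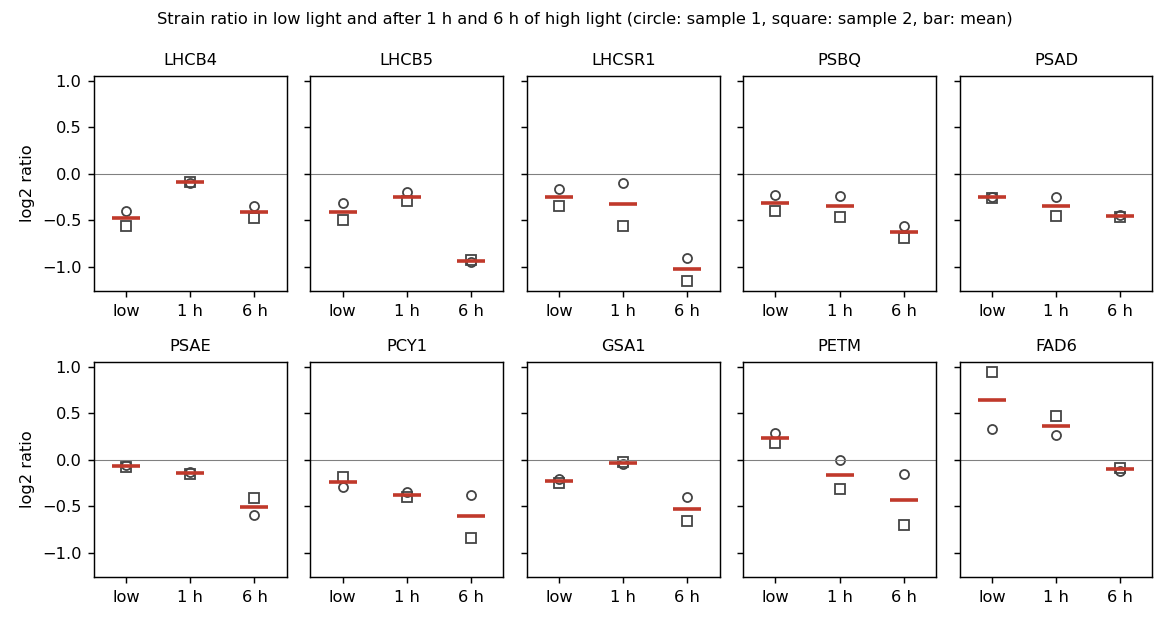
Each panel is a locus; the x axis gives low light and 1 h and 6 h of high light, and the y axis the log2 ratio. Circles and squares are biological samples 1 and 2 (each the mean of 2 slides) and bars their mean. LHCB5 and LHCSR1 are lowest at 6 h (-0.94 and -1.03), and FAD6 and PETM are highest in low light (0.64 and 0.23); none of these changes passed the test.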

How the data were processed

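The authors deposited log2 ratios normalized in SNOMAD, per the labels; its settings, any background correction and any spot filter were not stated in the labels or files used. The labels define the ratio as Cy3 over Cy5 for forward slides and as Cy5 over Cy3 for reversed ones, and signs were kept as deposited. Their scale is known, their centring is unknown, and their direction is likely, not settled. Scanner intensities were not used here.

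Exact zeros were read as missing; 623 spots held 0 throughout. The 4 copies of each element (at least 2 values) and then both slides of a biological sample were averaged, so that exchanged slides count as 1 replicate. Limma 3.58.1 in R 4.3.3 fitted a mean per time point and 1 moderated spread per element over the 6 biological samples (prior degrees of freedom 5.66, prior SD 0.108). Means were tested against 0, and changes from low light against 0, both two-sided. P-values were adjusted by Benjamini-Hochberg over all elements tested in a comparison. The procedure was tested on simulated data. The number of slides limits the precision.

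The platform's annotation gave 1 locus for 420 spots, several for 4 and none for 11096. All 100 loci were found in the gene table of Chlamydomonas_reinhardtii_v5.5, but neither source held symbols, products or sequences. Symbols and roles for 37 loci were therefore assigned from general knowledge of the tags, after values had been seen, and could not be checked against a file. The members and lists were chosen with earlier results of these data known. The text names elements past the low light test, locus-tagged elements with an unadjusted p under 0.05 or among the 5 highest or 5 lowest means, loci of photosynthesis and pigment synthesis, up to 4 examples per other function, and loci with several elements. Elements 2424, 779, 888, 320, 911, 27 and 1271 were chosen after their values were seen. Elements 27 and 1271 had deposited low light means of -0.68 and -0.72. Alternatives varied the source of the spread, zeros, copies, centring, regional trends, blocks, orientation, signs and single samples. The mutated genes were not analysed here.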

Additional observations from a re-analysis of the deposited data

Results flagged for a closer look

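Within the 4 low light slides, 62 quantities (60 elements and 2 slide measures) were examined for a slide far from the others, and 5 had one. Chance alone gives about 1 in 20 for independent values of like spread. These slides differed by orientation and the elements share slides, so the 5 cannot be set against that rate. The reversed slide of sample 2 (npq1 lor1 in channel 1) had 22.27% of its spots without a value and a median SD between copies of 0.2636, both far above the other slides. On the same slide CHLRE_16g656400v5 had -1.479, against -0.00 to 0.18 elsewhere. ATPD had 0.1815 on the forward slide of sample 2, against 0.05 to 0.06. Element 535 of HYDA1 had -0.1503 on the reversed slide of sample 1, against -0.03 to -0.02. The part of slide quality in these values was not tested.

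In limma's test of the difference between time points, element 911 changed by -1.23 from low light to 1 h, and element 293 by 1.128 from low light to 6 h. The low light value of element 293 in sample 2 averaged slides of opposite sign.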

How the results depend on the processing

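Counts are given in the order low light, change to 1 h and change to 6 h, where the reported ones were 8, 1 and 1. With the spread from the time points tested alone they were 114, 2 and 1, and with zeros kept as values 0, 0 and 0 (263, 210 and 343 at an unadjusted p under 0.05, limma). At least 3 copies gave 27, 4 and 15, on fewer elements. At least 1 copy, the median of copies, centring and a running median each gave 0 for the change to 6 h. With all 12 slides and the sample as a random block the counts were 47, 2 and 33, and with a dye term added 55, 4 and 31. Robust moderation left all counts as they were.

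The sample number as a replicate block gave 28, 3 and 13. Differences between samples of like number correlated with r of 0.23 for low light and 1 h, -0.02 for low light and 6 h, and -0.15 for 1 h and 6 h. The elements share slides and are not independent, so these values cannot decide whether the numbers pair the samples. The labels give no cultures or days that would settle it.

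Forward slides alone gave 46 (39 positive), 1 and 5, and reversed slides alone 468 (406 negative), 0 and 0. With the sign turned on reversed slides the counts were 842 (759 positive), 0 and 0, and 38 of the 60 low light ratios given changed sign. These were elements 27 (0.54), 47 (0.39), 293 (0.69), 779 (0.21), 1018 (0.29), 1314 (0.25), 1360 (0.065), 888 (-0.06), 911 (0.13), 1271 (0.28) and 2424 (0.046), LHCB5 (0.057), PSAD (0.0020), PRK1 (0.21), FAD6 (-0.10), ACP2 (-0.09), PETM (-0.02), PETF (-0.16), FDX2 (-0.02), CAH6 (-0.17), CPX1 (0.0073), MAS1 (0.074), ANT1 (-0.11), FTT1 (0.18), 1 element each of ATPC (-0.01) and HYDA1 (0.032), CRD1 (0.29), LHCSR1 (0.36), FDX5 (0.24), VIPP1 (0.22), CEN1 (0.22), PDI1 (-0.29), CHLRE_09g400775v5 (0.36), CHLRE_16g679500v5 (0.46), CHLRE_16g656400v5 (0.40), both elements of CHLRE_01g010000v5 (0.24 and -0.03) and CHLRE_09g405850v5 (0.44). The changes of element 293 to 1 h and 6 h also changed sign (-0.58 and -0.34).

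Leaving out 1 biological sample gave 1 to 20, 0 to 3 and 0 to 11. Without the low light slide with the most zeros, an alternative chosen after seeing the data, the low light count was 1. At 2-fold in place of 1.5-fold, 1 element was left of 10. LHCB4 passed in 12 of the 18 alternatives that kept both orientations and the deposited sign, those that leave out a sample or slide included (adjusted p 0.00360 to 0.643). The cause of these shifts was not tested.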
